A study of Mus musculus with 6 samples.

Results

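The 40 genes described here are mouse counterparts of genes in which rare disrupting variants are linked to autism in people, most of them coding for proteins that act on chromatin, transcription or RNA. They were taken by name from a table of 53379 genes, in which all 40 were found. The rule used no measured value, but the names were listed with earlier results of these data known. The series compared cortex of newborn Npas3+/- mice, which carry 1 disrupted copy of the transcription factor gene Npas3, with wild-type (WT) cortex. Each genotype was represented by 3 total RNA libraries, all from strain C57BL/6 at postnatal day 0. How the Npas3 allele was made, and whether each library came from 1 animal, is not given in the sources used here, so the spread behind every p-value may be technical as well as biological.

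Many of these genes are dosage sensitive in people, where the loss of 1 working copy is enough to cause a neurodevelopmental disorder. Remodellers such as CHD8 and the BAF complex move nucleosomes, histone methyltransferases such as KMT2A, NSD1 and EHMT1 place marks that other proteins read, and both classes help set which genes a young neuron uses. A smaller set acts outside the nucleus, in protein turnover, in the axon and at contacts between cells.

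Total counts ran from 67378231 to 87811574 per library, and the members together took 0.869% to 0.939% of them. Npas3 itself stood at 14.96, 14.1 and 8.61 CPM (counts per 1e6 counts) in the Npas3+/- libraries and at 23.4 CPM or more in the WT libraries. Npas3+/- replicate 2 stood apart, with 3667 CPM of Xist and 0.975 CPM summed over the Y-linked genes Ddx3y, Eif2s3y, Kdm5d and Uty. In each of the other libraries Xist did not exceed 2.02 CPM and the Y-linked sum was at least 208 CPM. By these genes, Npas3+/- replicate 2 had the levels of female tissue and the other libraries those of male tissue. The only library with female levels was therefore in the Npas3+/- group, and sex was not modelled. Markers of the labelled tissue were present: the projection neuron genes Neurod6 and Tbr1 averaged 649 and 273 CPM in Npas3+/- cortex and 514 and 264 CPM in WT. Striatal markers differed widely within genotypes: the mean deviation of 12 such genes from the 6-library mean on the log2 scale was -1.19, -1.23 and 0.45 in Npas3+/- libraries, and in WT libraries it was 1.12, 1.40 and -0.55. 6 of 7 radial glia and all 6 astrocyte markers had negative log2 fold changes, with medians of -0.37 and -0.45. So had 7 of 8 interneuron markers and all 6 microglia markers, both with a median of -0.23, and the part of these markers in the results was not tested beyond the striatal covariate. In bulk tissue, fewer cells of a type and less RNA per cell cannot be told apart.

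Promoter windows from RefSeq (GRCm38.p6), each of 300 bases with 250 before and 50 after the annotated start, were matched by symbol for 31 of the 40 members. The first window listed per gene was used. A CpG ratio, observed CpG over that expected from base composition, of at least 0.6 was found in 25 of 31 member windows (80.6%) and in 64.6% of the 13146 tested genes with a window. The median member window held 26 CpG against 19 over those genes. NPAS3 pairs with ARNT, and dimers of this family are known for the core ACGTG. That core, on either strand (ACGTG or CACGT, which overlap in CACGTG), was present in 10 of 31 member windows (32.3%) and in 24.4% of all tested windows. These matches describe letters only. The windows of the member with the largest difference between genotypes (Cntnap2, chr6:45059811-45060110, plus strand), of an X-linked member (Ddx3x, chrX:13280772-13281071, plus strand) and of the member that was highest relative to its spread in Npas3+/- cortex (Ehmt1, chr2:24919560-24919859, minus strand) are shown 5′ to 3′, with the core in capitals.
Cntnap2: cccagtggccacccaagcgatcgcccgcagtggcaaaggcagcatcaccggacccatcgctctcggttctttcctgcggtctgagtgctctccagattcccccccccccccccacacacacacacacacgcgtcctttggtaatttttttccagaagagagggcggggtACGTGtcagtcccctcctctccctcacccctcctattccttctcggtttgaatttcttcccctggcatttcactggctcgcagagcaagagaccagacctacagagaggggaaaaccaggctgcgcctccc
Ddx3x: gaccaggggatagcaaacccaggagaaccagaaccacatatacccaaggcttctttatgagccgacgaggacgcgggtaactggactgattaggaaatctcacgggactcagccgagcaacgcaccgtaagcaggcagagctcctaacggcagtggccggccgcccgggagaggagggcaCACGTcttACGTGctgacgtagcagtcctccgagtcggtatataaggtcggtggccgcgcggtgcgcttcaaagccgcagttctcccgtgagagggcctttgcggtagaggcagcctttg
Ehmt1: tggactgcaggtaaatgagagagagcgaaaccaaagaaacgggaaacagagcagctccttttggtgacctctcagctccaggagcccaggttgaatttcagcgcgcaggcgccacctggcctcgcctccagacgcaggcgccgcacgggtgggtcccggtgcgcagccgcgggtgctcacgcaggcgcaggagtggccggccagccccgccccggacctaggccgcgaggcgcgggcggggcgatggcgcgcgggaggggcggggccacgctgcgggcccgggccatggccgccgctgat
The Cntnap2 window held 1 core, the Ddx3x window 2 and the Ehmt1 window 0.

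All 40 members were expressed well enough to be tested, with at least 260 counts in every library. Their median level was 13.1 CPM per kilobase of annotated exon, against 4.88 for the 15351 protein-coding genes tested, and 38 of 40 lay above that median. Members were also long: the median gene spanned 127 kb against 24.6 kb for protein-coding genes, and 38 of 40 were above the protein-coding median. Ddx3x, which codes for a DEAD-box RNA helicase, had the highest level, 98.4 CPM per kb over all 6 libraries. Hnrnpu, a nuclear RNA-binding scaffold protein, followed at 62.7, and Adnp, a zinc finger and homeodomain protein that binds the remodeller CHD4, at 51.1 CPM per kb. At the other end were Ptchd1, a patched-domain membrane protein, at 1.496, the methyl-CpG-binding-domain gene Mbd5 at 2.48 and the adhesion gene Cntnap2 at 5.19 CPM per kb. Of the 39 neighbouring pairs in this order, 34 overlapped between libraries. The 5 that did not included Ddx3x over Hnrnpu, Adnp over Cul3, Cntnap2 over Mbd5 and Mbd5 over Ptchd1. The level and rank of Adnp are uncertain, because another gene on the same strand, Gm20716, covers 82.1% of its exon length.

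**Figure D1:**
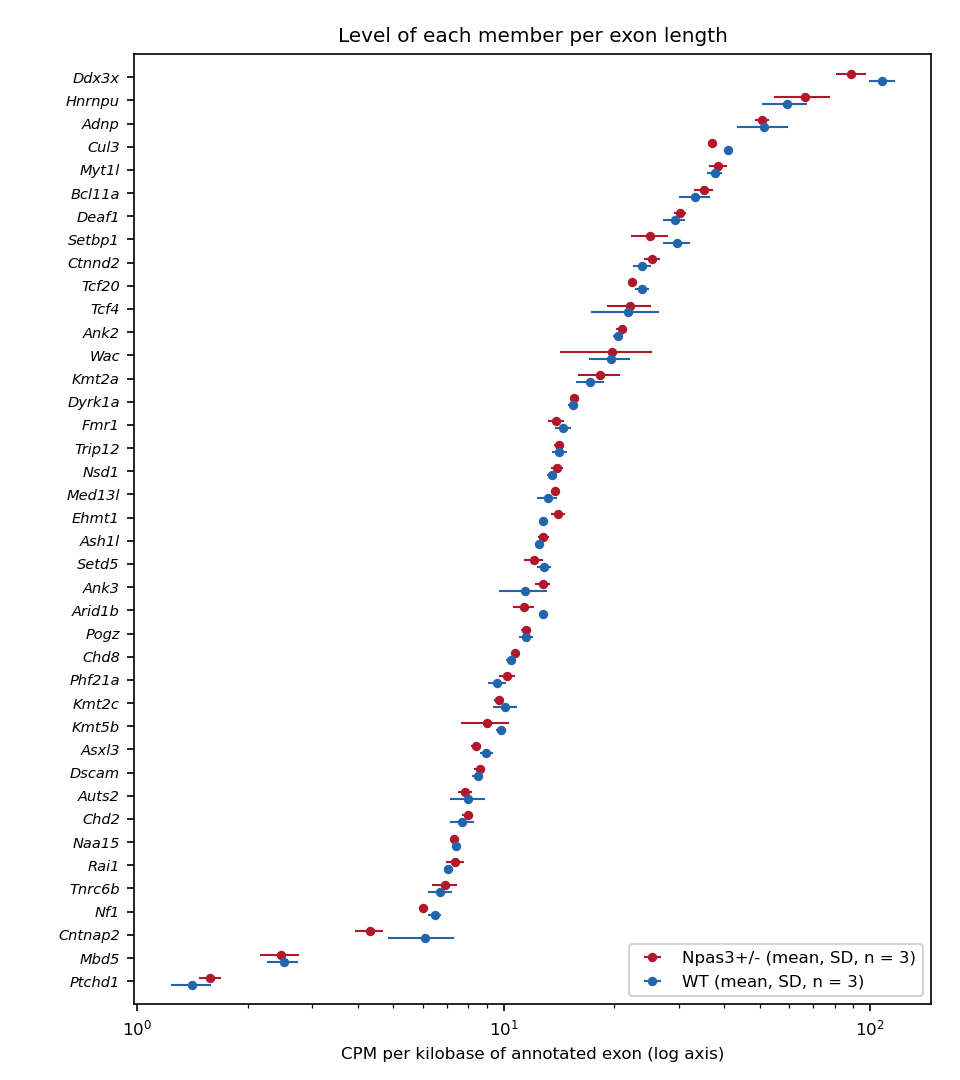
Level of each of the 40 members, in CPM per kilobase of annotated exon on a log axis, as mean and SD of 3 Npas3+/- libraries (red) and 3 WT libraries (blue). Ddx3x is highest at 98.4 and Ptchd1 lowest at 1.496 CPM per kb over all 6 libraries, and the genotypes lie close together for most members.

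The comparison of genotypes asked whether the loss of 1 copy of Npas3 is accompanied by different levels of these genes in newborn cortex. The differences were small. None of the 40 passed an adjusted p of 0.05 over all 21244 genes tested in edgeR's quasi-likelihood test, where 0.0377% of all genes passed. limma-voom called 0 of the 40, and DESeq2 called 1, Cntnap2, where it called 2.41% of all genes. At an unadjusted p under 0.05 edgeR gave 6 of 40 (15%), against 12.1% of all genes, of which 1 was higher (2.5%, against 6.29% of all genes) and 5 lower (12.5%, against 5.84%). That count of 6 was 3 without Npas3+/- replicate 1, 2 without WT replicate 2, 3 with a correction for transcript GC content and 1 with the striatal score as a covariate. The groups did not overlap in 7 of 40 members (17.5%), against 18.9% of all genes. Of the 7, Ehmt1 was higher, where 9.7% of all genes were wholly higher, and 6 were lower, where 9.18% were. The shares taken over both directions were near the background. By direction they were not, on counts of 1, 5 and 6 members, and that split was not tested. The 5 lower at an unadjusted p under 0.05 became 3 with the GC correction and 1 with the striatal covariate. The 1 higher became 0 with either.

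Log2 fold changes of Npas3+/- over WT ran from -0.50 to 0.17, with 23 members above 0 and 17 below, where 48.2% of all genes were above 0. The split was 12 above and 28 below with the striatal covariate, and 18 and 22 without Npas3+/- replicate 2. The median was 0.02, against -0.01 over all genes tested. In 29 of 40 members (72.5%) the difference was under 0.1 in size on the log2 scale, which 33% of all genes met, and in 38 of 40 (95%) under 0.25, which 63.1% met. The members also had small standard errors (SE), with a median of 0.06 against 0.18 over all genes, and 39 of 40 were above the protein-coding median in abundance. Taken one at a time, the 95% intervals of 39 members lay within a 1.5-fold difference either way, and that of Cntnap2 reached beyond it. The half-width of the interval was 0.15 at the median, from 0.10 for Ank2 to 0.48 for Wac.

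**Figure D2:**
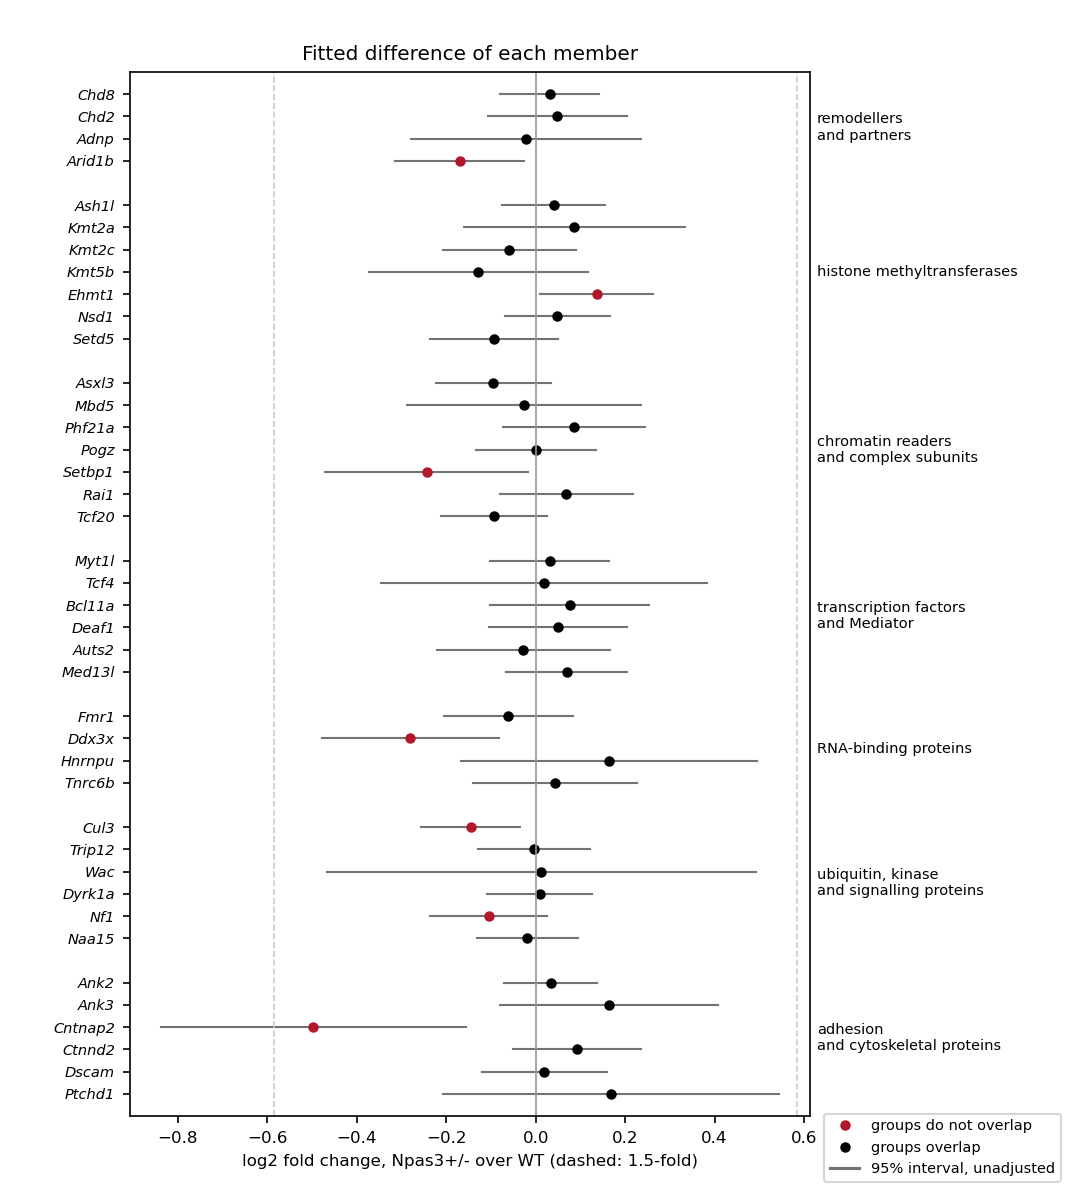
Log2 fold change of Npas3+/- over WT for each member with its unadjusted 95% interval, grouped by role; red points are members whose 3 Npas3+/- and 3 WT libraries did not overlap. The points lie between -0.50 (Cntnap2) and 0.17 (Ptchd1), and the Cntnap2 interval alone crosses the dashed line of a 1.5-fold difference.

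Among remodellers and their partners, Chd8 was the steadiest. It codes for a chromodomain helicase and is among the genes most often disrupted in autism. Its level was 178, 177 and 176 CPM in Npas3+/- replicates 1 to 3 and 168, 171 and 179 CPM in the WT replicates, a log2 fold change of 0.03 (SE 0.05, adjusted p = 0.843). The Npas3+/- values lay within the WT range. Chd2, a related helicase, averaged 114 ± 3.69 CPM in Npas3+/- and 110.2 ± 8.13 CPM in WT (SD, n = 3 each).

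Arid1b, a DNA-binding subunit of the BAF complex on chromosome 17 (4994332 to 5347656), had 132, 148 and 149 CPM in Npas3+/- cortex, against 159, 165 and 158.5 CPM in WT. All 3 Npas3+/- libraries were below all 3 WT libraries, and replicate 1 was the lowest. The log2 fold change was -0.17 (SE 0.06, adjusted p = 0.358) and -0.11 without Npas3+/- replicate 1. The 26 other BAF subunits and partners tested had a median of 0.07, with 17 above 0 and 9 below. At an unadjusted p under 0.05, 3 were higher (11.5%, against 6.29% of all genes) and 1 lower (3.85%, against 5.84%). The lower one was Actl6a, the actin-like subunit of progenitor cells, with 24.6, 25.2 and 23.96 CPM in Npas3+/- and 30.9, 27.6 and 34.95 CPM in WT (log2 fold change -0.34, SE 0.10, adjusted p = 0.288). Of the 3 higher, Dpf2 had the smallest p. It had 59.8, 60.8 and 55.4 CPM in Npas3+/- and 49.7, 42.5 and 52.6 CPM in WT (log2 fold change 0.28, SE 0.09, adjusted p = 0.323). The ATPase gene Smarca4 averaged 406 ± 7.12 CPM in Npas3+/- and 367 ± 25.2 CPM in WT (0.15, SE 0.06, adjusted p = 0.373).

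The exons of Adnp overlap those of Gm20716, an annotated protein-coding gene on the same strand that covers 82.1% of the Adnp exon length. Adnp had 258, 274 and 282 CPM in Npas3+/- and 225, 298 and 302 CPM in WT, and Gm20716 had 26.5, 18.9 and 0 CPM in Npas3+/- and 67.5, 16.1 and 19.6 CPM in WT. The WT library lowest for Adnp was the one highest for Gm20716. Summed, the pair stood at 284, 292 and 282 CPM in Npas3+/- and 293, 314 and 322 CPM in WT, so that the groups no longer overlapped. With the counts summed, which was added once the values had been seen, the log2 fold change was -0.11 (SE 0.05, adjusted p = 0.432), against -0.02 (SE 0.11, adjusted p = 0.963) for Adnp alone. Chd2 shares 18.4% of its exon length with 1810026B05Rik on the same strand, which had 43.1, 46.3 and 44.3 CPM in Npas3+/- and 16.2, 51.6 and 65.9 CPM in WT. Partners of ADNP and POGZ in heterochromatin were mostly below WT, 5 of 6 with a median of -0.11. Cbx5, which codes for the heterochromatin protein HP1 alpha, had 347, 352 and 358 CPM in Npas3+/- and 381, 417 and 402 CPM in WT (log2 fold change -0.18, SE 0.05, adjusted p = 0.276; -0.12 with the GC correction).

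**Figure D3:**
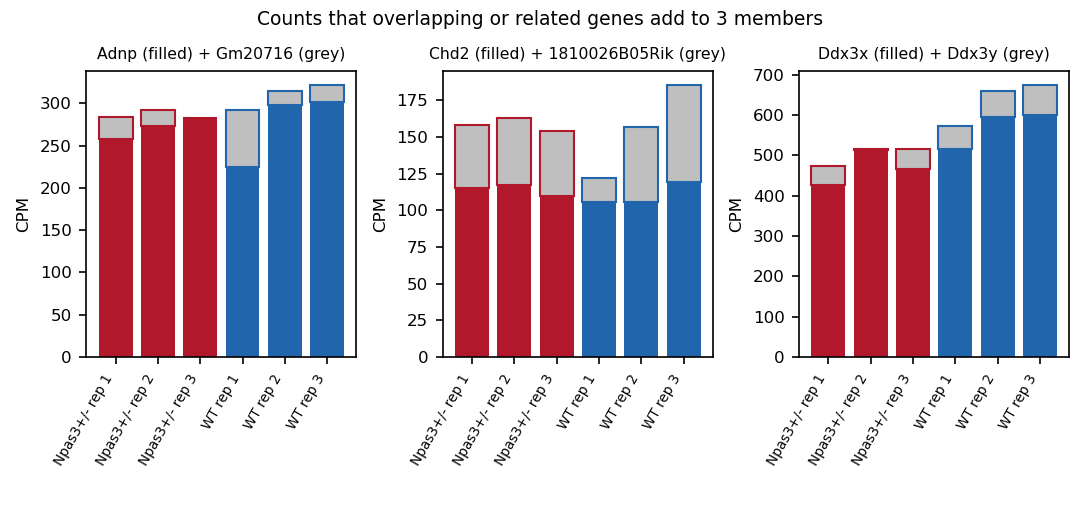
CPM of Adnp, Chd2 and Ddx3x (filled bars) in each library, with the CPM of an overlapping gene (Gm20716, 1810026B05Rik) or the Y-linked relative Ddx3y stacked on top in grey; Npas3+/- libraries are red and WT libraries blue. Gm20716 adds 67.5 CPM in WT replicate 1 and 0 in Npas3+/- replicate 3, and Ddx3y adds 0.299 CPM in Npas3+/- replicate 2.

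Ehmt1 was the histone methyltransferase with the smallest p. It codes for GLP, which with G9a (Ehmt2) methylates lysine 9 of histone H3 at silenced genes. On chromosome 2 (24789928 to 24919614), it had 119.7, 114 and 109.7 CPM in Npas3+/- and 106, 104 and 102 CPM in WT. Each Npas3+/- library was above each WT library, by a small margin at the closest pair. The log2 fold change was 0.14 (SE 0.05, adjusted p = 0.379). In edgeR its unadjusted p was 0.038, and in DESeq2 it was 0.055. With the GC correction, upper-quartile scaling, the replicate block or the striatal covariate, 0 members were higher at an unadjusted p under 0.05. Its partner Ehmt2 showed the same order, with 308, 299 and 300 CPM in Npas3+/- and 270.3, 262 and 277 CPM in WT (log2 fold change 0.16, SE 0.04, adjusted p = 0.276; 0.07 with the GC correction). Neither passed over all genes.

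The other methyltransferases overlapped between genotypes. Kmt2a, which methylates lysine 4 of histone H3, had 329, 328 and 259 CPM in Npas3+/- and 259, 301 and 302 CPM in WT, so that replicate 3 of Npas3+/- and replicate 1 of WT were the low libraries. Kmt2c, of the same family, averaged 196 ± 5.60 CPM in Npas3+/- and 205 ± 15.4 CPM in WT. Kmt5b, which methylates lysine 20 of histone H4, had 110.2 CPM in Npas3+/- replicate 1 and 147 and 141 CPM in the other Npas3+/- libraries, against 146, 140.02 and 149 CPM in WT. Nsd1, an H3 lysine 36 methyltransferase, averaged 245 ± 9.06 CPM in Npas3+/- and 237 ± 7.67 CPM in WT. Ash1l, which acts on the same residue, averaged 190.4 ± 6.28 CPM in Npas3+/- and 185 ± 4.95 CPM in WT. Setd5, a SET-domain protein, averaged 222 ± 13.2 CPM in Npas3+/- and 237 ± 10.7 CPM in WT.

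Of 14 KMT2-type enzymes and core subunits, 11 had positive log2 fold changes with a median of 0.11, and 0 passed in edgeR. At an unadjusted p under 0.05, 5 were higher (35.7%, against 6.29% of all genes) and 1 lower (7.14%, against 5.84%). Setd1b, another H3 lysine 4 methyltransferase, had 117, 117 and 107 CPM in Npas3+/- and 91.6, 76.6 and 86.3 CPM in WT (log2 fold change 0.42, SE 0.08, adjusted p = 0.27 in edgeR and 0.00234 in DESeq2). Kmt2d had 209, 231 and 200.04 CPM in Npas3+/- and 168, 188 and 187 CPM in WT (0.24, SE 0.07, adjusted p = 0.299). Pagr1a, a subunit of the same complexes, stood at 0.648 CPM in Npas3+/- and 0.167 CPM in WT on average, a level too low for a firm ratio.

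Setbp1 was the chromatin-binding member with the largest difference. It codes for a nuclear protein that binds SET, and lies on chromosome 18 (78750380 to 79109391). The libraries held 217, 263 and 271 CPM in Npas3+/- and 274, 292 and 323 CPM in WT. All Npas3+/- values were below all WT values, but Npas3+/- replicate 3 and WT replicate 1 nearly met. The log2 fold change was -0.24 (SE 0.10, adjusted p = 0.381), and -0.15 without Npas3+/- replicate 1.

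The remaining readers and complex subunits overlapped. Pogz, a zinc finger protein with a transposase-derived domain, had 108, 108 and 103 CPM in Npas3+/- and 102, 104 and 112 CPM in WT, a log2 fold change of 0.00034 (SE 0.06), the closest to 0 among the members. Mbd5 had 42.2, 48.8 and 53.9 CPM in Npas3+/- and 51.4, 43.7 and 52.6 CPM in WT, with wide spread in both genotypes. Asxl3, an Additional sex combs relative found in the H2A deubiquitinase complex, averaged 130.4 ± 4.16 CPM in Npas3+/- and 139 ± 5.96 CPM in WT. Phf21a, a histone reader of the LSD1 complex, averaged 87.3 ± 4.33 CPM in Npas3+/- and 82.2 ± 4.73 CPM in WT. The paired relatives Rai1 and Tcf20 stood at 0.07 and -0.09 (SE 0.06 and 0.05), but Rai1 was at -0.029 with the GC correction and at 0.022 without Npas3+/- replicate 1. Rai1 averaged 70.7 ± 4.09 CPM in Npas3+/- and 67.4 ± 0.845 CPM in WT, and Tcf20 averaged 184 ± 4.14 CPM in Npas3+/- and 197 ± 8.36 CPM in WT. Among partners of these proteins 9 of 13 were above 0, with a median of 0.11, and DESeq2 called 1, the forkhead gene Foxk1 (76.9 CPM in Npas3+/- and 64.5 CPM in WT on average, adjusted p = 0.0379 in DESeq2 and 0.276 in edgeR).

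Transcription factors and the Mediator subunit lay within 0.08 of 0. Myt1l, a zinc finger repressor of non-neuronal genes, had 567, 546 and 508 CPM in Npas3+/- and 552, 503 and 531 CPM in WT. It is on the chromosome of Npas3, 23.3 Mb away, and its groups overlapped (log2 fold change 0.03, SE 0.06, adjusted p = 0.878). Tcf4, an E-protein partner of proneural bHLH factors, ranged from 514 to 670 CPM in Npas3+/- and from 488 to 736 CPM in WT, so its interval, -0.35 to 0.38, was among the widest. Bcl11a, a zinc finger factor of projection neurons, averaged 463 ± 26.5 CPM in Npas3+/- and 439 ± 41.6 CPM in WT. Auts2, which joins a Polycomb complex, averaged 179.6 ± 8.16 CPM in Npas3+/- and 183 ± 19.7 CPM in WT. Deaf1, a SAND-domain factor, averaged 133 ± 5.33 CPM in Npas3+/- and 129 ± 8.88 CPM in WT. Med13l, of the Mediator kinase module, averaged 213 ± 5.82 CPM in Npas3+/- and 203 ± 12.7 CPM in WT. In the same module Med12, an X-linked gene outside the 40, had 119, 116 and 108 CPM in Npas3+/- and 88.4, 88.9 and 96.9 CPM in WT (log2 fold change 0.32, SE 0.06, adjusted p = 0.27 in edgeR and 0.00932 in DESeq2).

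Ddx3x had a small p of the members. It lies on chromosome X (13280970 to 13294052), and its human counterpart escapes X inactivation. Its level was 426, 514 and 467 CPM in Npas3+/- and 515, 594 and 599 CPM in WT. All 3 Npas3+/- libraries were below all 3 WT libraries, but Npas3+/- replicate 2, the library with Xist, nearly met WT replicate 1, at 514.1 against 515.1 CPM. The log2 fold change was -0.28 (SE 0.08, adjusted p = 0.294), and -0.35 without that library. Its Y-linked relative Ddx3y had 47.1, 0.299 and 49.4 CPM in Npas3+/- and 57.2, 65.6 and 74.8 CPM in WT. Summed over both, the level was 501 ± 24.2 CPM in Npas3+/- and 636 ± 55.2 CPM in WT, a log2 fold change of -0.34 (SE 0.07, adjusted p = 0.267), also added once the values had been seen. Npas3+/- replicate 2, the library with female levels of Xist, adds almost no Ddx3y to that sum, and sex was not modelled. The other X-linked members did not follow Ddx3x. Fmr1, which codes for the translational regulator FMRP, had 124, 131 and 119 CPM in Npas3+/- and 136, 132 and 123 CPM in WT (log2 fold change -0.06, SE 0.06). Ptchd1 had 5.05, 4.42 and 4.79 CPM in Npas3+/- and 4.596, 4.48 and 3.62 CPM in WT (0.17, SE 0.16; 0.07 without WT replicate 3). Both overlapped between genotypes.

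Hnrnpu split the libraries in a way that cut across genotype. It had 868 and 819 CPM in Npas3+/- replicates 1 and 3 and 617 CPM in replicate 2, against 797 CPM in WT replicate 2 and 638 and 622 CPM in WT replicates 1 and 3. Each genotype therefore held high and low libraries (log2 fold change 0.16, SE 0.14, adjusted p = 0.697). Its exons overlap those of Cox20 on the opposite strand over 6.93% of their length, and Cox20 was at 20.1 to 24 CPM throughout. Whether the overlap adds to the Hnrnpu counts was not tested. Tnrc6b, a scaffold of the miRNA silencing complex, averaged 164 ± 12.5 CPM in Npas3+/- and 159 ± 12.3 CPM in WT. All 6 Argonaute and other TNRC6 genes were above 0, with a median of 0.14, and 0 passed in edgeR or DESeq2 (1 was higher at an unadjusted p under 0.05 in edgeR, 16.7% against 6.29% of all genes); Tnrc6a had the smallest p, with 137, 125 and 123 CPM in Npas3+/- and 115, 106 and 108 CPM in WT (0.23, SE 0.06, adjusted p = 0.276).

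In the group of protein turnover, kinase and signalling genes, Cul3 had the smallest p. It codes for the cullin scaffold of ubiquitin ligases that use BTB-domain adaptors, and lies on chromosome 1 (80264923 to 80340480). Levels were 182, 185 and 175 CPM in Npas3+/- and 199.96, 204 and 195 CPM in WT. The groups were apart, with low spread in each. The log2 fold change was -0.15 (SE 0.05, adjusted p = 0.323). Cul3 has the lowest transcript GC content of the members, 38.5%, and with the GC correction its log2 fold change was -0.05. Keap1, one of its adaptors, was the companion with the smallest p in that list, with 64.0, 62.6 and 63.1 CPM in Npas3+/- and 50.1, 54.0 and 51.05 CPM in WT (log2 fold change 0.29, SE 0.06, adjusted p = 0.27 in edgeR and 0.0102 in DESeq2).

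Nf1, the Ras GTPase-activating protein neurofibromin, was also without overlap, at 95.1, 97.7 and 93.4 CPM in Npas3+/- and 98.6, 107 and 102 CPM in WT, though its difference was -0.11 (SE 0.06, adjusted p = 0.504). Trip12, a ubiquitin ligase, had 228, 242 and 235 CPM in Npas3+/- and 223, 238 and 246 CPM in WT, a log2 fold change of -0.004 (SE 0.05). Dyrk1a, a kinase of neural progenitors linked to Down syndrome, had 126, 129 and 129.9 CPM in Npas3+/- and 123, 128 and 131 CPM in WT (0.01, SE 0.05). Naa15, the auxiliary subunit of the N-terminal acetyltransferase NatA, varied least of all members within genotypes, with 113 ± 1.99 CPM in Npas3+/- and 114 ± 2.15 CPM in WT. Wac, an adaptor of histone H2B ubiquitination, varied most, with 138, 134 and 79.0 CPM in Npas3+/- and 122, 127 and 99.3 CPM in WT. Replicate 3 was the low library in both genotypes, and the pooled within-genotype SD of log2 CPM was 0.35 for Wac, 0.03 for Naa15 and 0.08 at the median of the members.

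Cntnap2 had the largest difference of the 40 and the smallest p. It codes for CASPR2, a neurexin-related adhesion protein that gathers potassium channels beside nodes of Ranvier, and it spans 2245 kb of chromosome 6 (45059357 to 47304213). Levels were 45.0, 39.8 and 47.6 CPM in Npas3+/- and 57.0, 77.0 and 52.9 CPM in WT. All 3 Npas3+/- libraries lay below all 3 WT libraries, and WT replicate 2 stood well above the other WT libraries. Npas3+/- cortex held 70.8% of the WT mean, a log2 fold change of -0.50 (SE 0.15, 95% interval -0.84 to -0.16), with an adjusted p of 0.288 in edgeR and of 0.0365 in DESeq2.

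Without WT replicate 2 the Cntnap2 difference was -0.32 (adjusted p = 0.601). The Npas3+/- library with the lowest Cntnap2, replicate 2, had the lowest striatal score (-1.23). The WT library with the highest Cntnap2, replicate 2, had the highest score (1.40). Npas3+/- replicate 3 had a higher score than WT replicate 3 (0.45 against -0.55) but less Cntnap2 (47.6 against 52.9 CPM). A link between Cntnap2 and the striatal markers was not tested. The summed interneuron markers ran from 462 to 579 CPM in Npas3+/- and from 559.6 to 679 CPM in WT, where replicate 2 was again the highest. The 12 striatal markers summed to 118 to 194 CPM in Npas3+/- and 137 to 299 CPM in WT, none was at 0 in any library, and 11 of 12 had negative log2 fold changes. With the striatal score as a covariate the difference in Cntnap2 was -0.27 (adjusted p = 0.805). Scores were partly split by genotype, so this fit cannot tell genotype and striatal markers apart. Of the 4 other contactin-associated genes listed, 3 had negative log2 fold changes too, and all 4 are named here after their values were seen. Cntnap3 had 10.01, 8.76 and 17.96 CPM in Npas3+/- and 21.7, 26.3 and 15.99 CPM in WT (-0.80, SE 0.29, adjusted p = 0.359). Cntnap5a had 22.2, 28.1 and 30.98 CPM in Npas3+/- and 31.5, 38.1 and 35.5 CPM in WT (-0.37, SE 0.14, adjusted p = 0.357). Cntnap4 stood at -0.28 (SE 0.17) and Cntnap1 at 0.15 (SE 0.42).

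**Figure D4:**
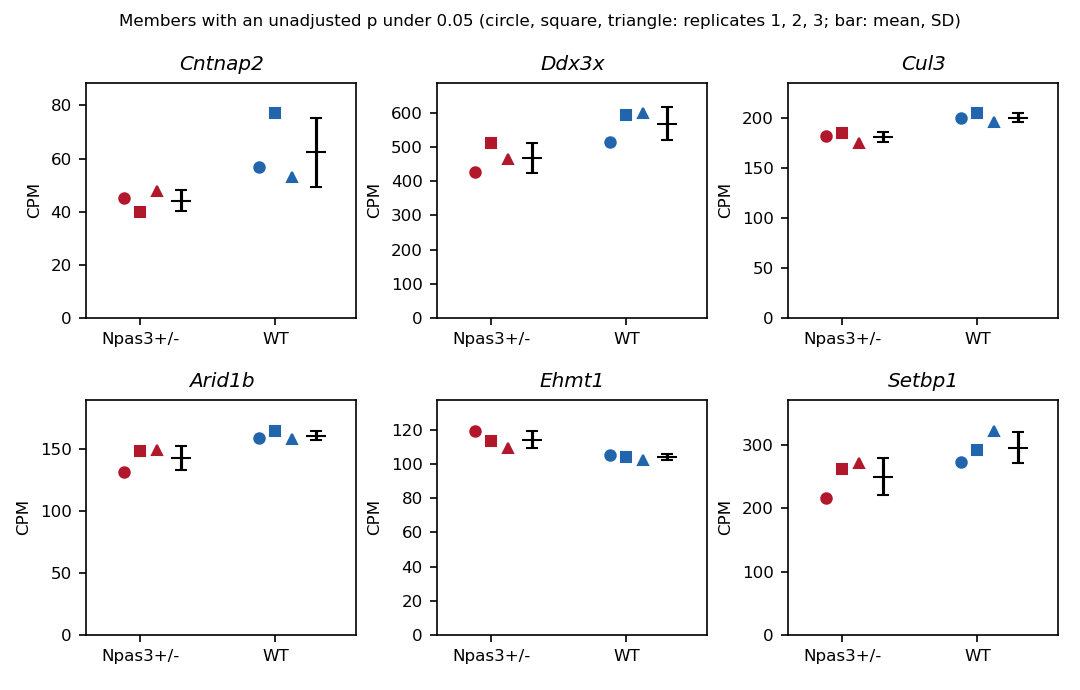
CPM in each library for the 6 members with an unadjusted p under 0.05, Npas3+/- in red and WT in blue; bars give mean and SD of 3 libraries. The 2 genotypes do not overlap in any of the 6 panels, Ehmt1 alone is higher in Npas3+/-, and WT replicate 2 of Cntnap2 stands at 77.0 CPM.

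The other adhesion and cytoskeletal members were close to WT. The ankyrins, which anchor channels and adhesion proteins to the spectrin skeleton of the axon, had high counts. Ank2 had 722, 761 and 718 CPM in Npas3+/- and 723, 736 and 692 CPM in WT, with the smallest SE of the members (0.03, SE 0.04). Ank3, the organiser of the axon initial segment, had 463, 450.3 and 421 CPM in Npas3+/- and 333, 406 and 451 CPM in WT, where WT replicate 1 was low (0.16, SE 0.10, adjusted p = 0.587; 0.05 without WT replicate 1). Ctnnd2, delta-catenin, averaged 263 ± 13.0 CPM in Npas3+/- and 246 ± 14.1 CPM in WT, and Dscam, a homophilic adhesion receptor, 75.7 ± 2.52 CPM in Npas3+/- and 74.7 ± 2.71 CPM in WT. A pair of relatives outside the 40 were called by DESeq2, both higher. Sptbn4, the spectrin of the axon initial segment, had 249, 227 and 227 CPM in Npas3+/- and 197, 194 and 187 CPM in WT (0.28, SE 0.05, adjusted p = 0.27 in edgeR and 0.00932 in DESeq2; 0.17 with the GC correction). Arvcf, a catenin of the same family as Ctnnd2, averaged 96.6 CPM in Npas3+/- and 80.03 CPM in WT (0.27, SE 0.06, adjusted p = 0.27 in edgeR and 0.0184 in DESeq2).

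Across libraries the members did not move as a block with genotype. The sum over the 40 was 8993, 9257 and 9005 CPM in Npas3+/- and 8658, 9175 and 9405 CPM in WT. WT replicate 3 was the highest library for 13 members and Npas3+/- replicate 1 and replicate 2 for 8 each; WT replicates 1 and 2 were the lowest for 11 and 10. By role, the medians of log2 fold change were 0.005 for remodellers and partners, 0.04 for methyltransferases, -0.03 for readers and complex subunits, 0.04 for transcription factors and Mediator, -0.009 for RNA-binding proteins, -0.01 for turnover and signalling genes and 0.06 for adhesion and cytoskeletal genes. Median log2 fold changes over all genes tested varied with transcript GC content: with genes cut into 5 equal bins, the bin lowest in GC stood at -0.08 and the highest at 0.07. The 7 members in the lowest bin had a median of -0.02 and the 2 in the highest 0.08.

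**Figure D5:**
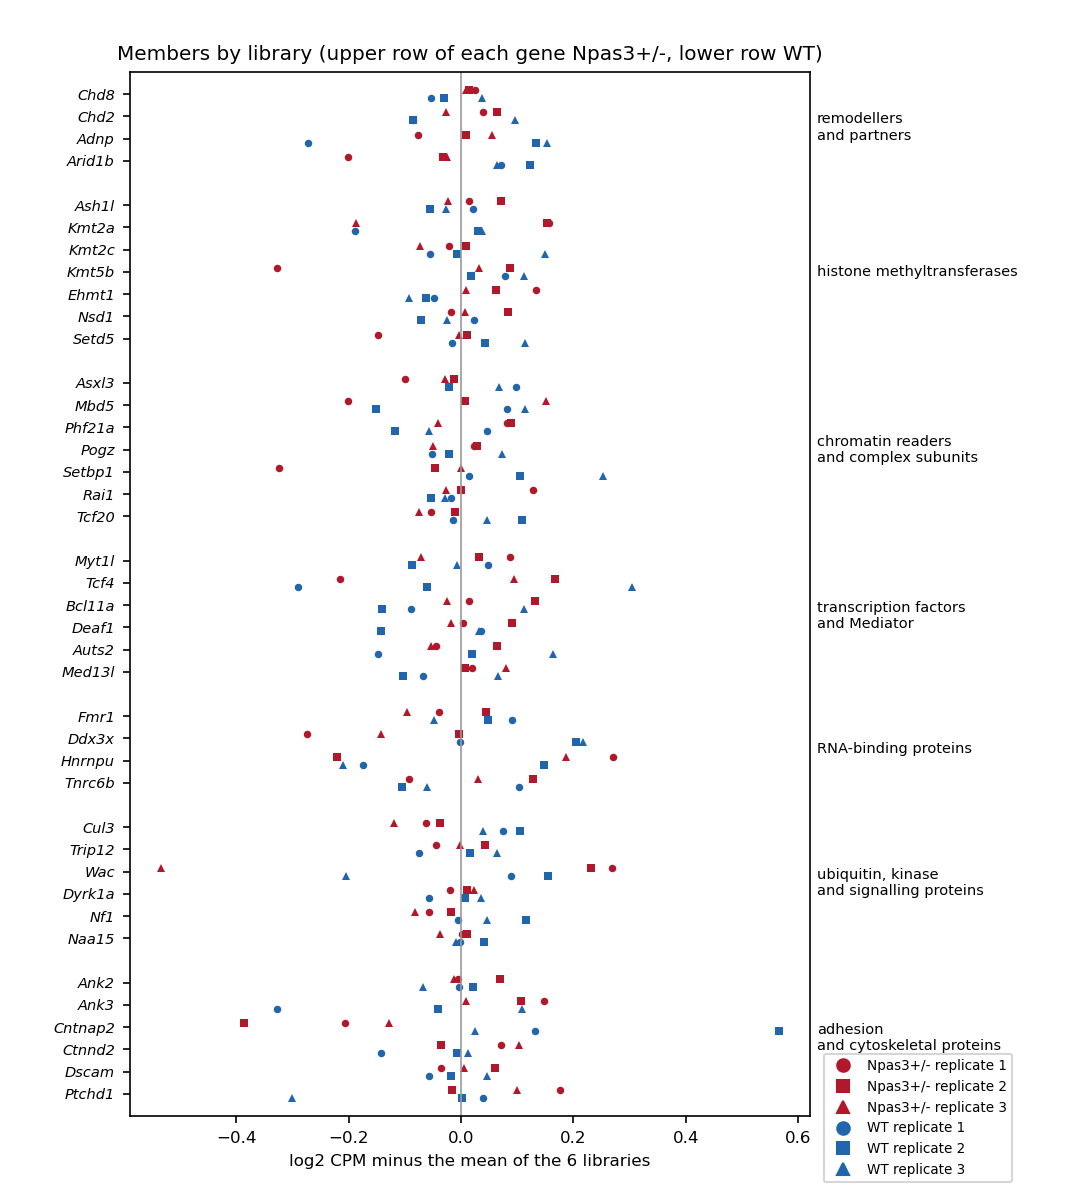
Deviation of log2 CPM from the mean of the 6 libraries for each member, Npas3+/- (red, upper row) and WT (blue, lower row), grouped by role. Red and blue points are fully apart for 7 genes, and Cntnap2, Wac and Tcf4 are among the most spread.

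Of the 133 related genes outside the 40 (paralogs, complex partners and adaptors), 132 were tested. In edgeR 0 passed over all genes, and limma-voom called 0. DESeq2 called 7 (5.3%, against 2.41% of all genes), namely Setd1b, Sptbn4, Med12, Keap1, Arvcf and Foxk1, which were higher, and Rasal2, a Ras GTPase-activating protein, which was lower (94.6 CPM in Npas3+/- and 112.6 CPM in WT on average). At an unadjusted p under 0.05 edgeR gave 30 of the 132, 22 higher (16.7%, against 6.29% of all genes) and 8 lower (6.06%, against 5.84%). That count of 30 was 17 without Npas3+/- replicate 1 and 14 with the striatal covariate. Their median log2 fold change was 0.04, against 0.02 for the 40. These relatives were listed with earlier results of the same data known, and no test compared the 2 lists.

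The lists of relatives not yet described gave mixed directions. Of 7 other CHD remodellers 5 were above 0 (median 0.05) and 0 were at an unadjusted p under 0.05; Chd3, a NuRD helicase, had the smallest p, with 1114, 1080.05 and 1136 CPM in Npas3+/- and 1047, 1032 and 1062 CPM in WT (log2 fold change 0.08, SE 0.04, adjusted p = 0.428). Of 11 other methyltransferases of H3K9, H3K36 and H4K20, 6 were above 0 (median 0.004), and 3 were higher at an unadjusted p under 0.05 (27.3%, against 6.29% of all genes). Of 6 genes of the Mediator kinase module 4 were above 0, with a median of 0.04. Relatives of Myt1l, Tcf4 and Auts2 had 3 of 8 above 0 (median -0.02). Fbrs, an Auts2 relative, had 77.9, 77.3 and 79.5 CPM in Npas3+/- and 58.3, 64.06 and 69.9 CPM in WT (0.29, SE 0.08, adjusted p = 0.276; 0.19 with the GC correction). St18, a Myt1 relative, had 4.09, 4.85 and 5.69 CPM in Npas3+/- and 6.52, 7.48 and 7.08 CPM in WT (-0.53, SE 0.16, adjusted p = 0.301). Relatives and partners of FMRP had 2 of 5 above 0 (median -0.02), among them Fxr2, an FMRP paralog, with 142, 132 and 121 CPM in Npas3+/- and 111, 115 and 116.5 CPM in WT (0.21, SE 0.07, adjusted p = 0.322; 0.13 with the GC correction). Of 9 cullin 3 adaptors and NatA genes 5 were above 0, with a median of 0.04. The DYRK and Ras-GAP relatives had 5 of 8 tested above 0 (median 0.05), and the relatives of the ankyrins, contactin-associated genes and delta-catenin 8 of 13 (median 0.03). edgeR called 0 genes in any of them after adjustment.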

How the data were processed

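Bulk RNA sequencing of newborn cortex was analysed from 1 table of raw read counts per gene that the authors deposited. The tools named in the submitters' processing notes are HISAT2 2.1.0, Trimmomatic 0.3.8 and featureCounts, with the build mm10; the annotation release, the strand setting and the treatment of reads that overlap several genes or map to several places are not given in the sources used here, so members overlapping another gene are uncertain. Groups came from the sample titles, and columns marked NP were taken as Npas3+/-. Identifiers were matched to GENCODE M21 (mm10): 53274 of 53379 had a symbol.

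The deposited counts were tested in edgeR 4.0.16 (R 4.3.3): filterByExpr, TMM scaling, and a quasi-likelihood test with genotype as its only term, adjusted by Benjamini-Hochberg over 21244 genes (threshold 0.05). SE is the log2 fold change over the square root of F, and 95% intervals use the moderated degrees of freedom. CPM are TMM-scaled. The common biological coefficient of variation was 26.1%. The smallest exact two-sided permutation p for 3 against 3 libraries is 0.1, and no such test was run. The procedure was tested on simulated data. DESeq2 1.42.0, limma-voom (limma 3.58.1), other scalings and filters, a GC correction (lowess span 0.4, as offsets), a striatal covariate, the replicate block and each library left out were alternatives. Members and lists were chosen with earlier results of these data known. All 40 members are named; per-library values are given for those with unadjusted p under 0.05 or called by DESeq2, the X-linked, the 3 highest and lowest per kilobase and the 3 with the smallest differences, plus others for spread or role; of each related list at most the 2 with the smallest p were set to be named, and a few more were chosen after their values were seen.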

Additional observations from a re-analysis of the deposited data

How the results depend on the processing

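edgeR passed 8 genes over all, DESeq2 511, the replicate block 3 and the replicate block with GC offsets 3; with 1 library left out the count ran from 7 to 16, the highest without WT replicate 1. Of the members edgeR called 0 and DESeq2 1; limma-voom called 0. Their median log2 fold change, 0.02, moved to -0.042 once the striatal score was added to the model, and ranged from -0.011 (without Npas3+/- replicate 2) to 0.040 (without WT replicate 3) with 1 library left out. The replicate numbers are not said to mark litters, so they were not taken as pairs. Deviations of same-numbered libraries had correlations of 0.037, -0.030 and -0.088, and those of differently numbered pairs ran from -0.059 to 0.087. Such values cannot show whether litters were shared. Members at an unadjusted p under 0.05 numbered 6, and 5 with the replicate block. They numbered 4 with the replicate block and GC offsets, 3 with GC offsets and 1 with the striatal covariate. With 1 library left out they ran from 2 (without WT replicate 2) to 7 (without WT replicate 3). Related genes at that p numbered 30, 25 with the replicate block, 20 with the replicate block and GC offsets, 14 with the striatal covariate and 17 (without Npas3+/- replicate 1) to 36 (without WT replicate 3) with 1 library left out. The members and some of the related genes were followed through these fits. Those that took the other sign were members, at most 0.087 in size in the main fit, and the related gene Cyfip1. None of them was at an unadjusted p under 0.05, and the cause was not tested. With GC offsets they were Mbd5 (0.00816), Rai1 (-0.029), Fmr1 (0.030), Trip12 (0.050), Naa15 (0.050) and Dscam (-0.00579). With the replicate block and GC offsets they were Adnp (0.0067), Mbd5 (0.00577), Rai1 (-0.031), Fmr1 (0.030), Trip12 (0.051), Naa15 (0.050) and Dscam (-0.00614). With the replicate block alone they were Wac (-0.023). With the striatal score as a covariate they were Chd8 (-0.00171), Chd2 (-0.048), Kmt2a (-0.077), Pogz (-0.068), Myt1l (-0.028), Tcf4 (-0.10), Bcl11a (-0.048), Deaf1 (-0.015), Wac (-0.17), Dyrk1a (-0.00231), Dscam (-0.015) and Cyfip1 (-0.00198). With upper-quartile scaling they were Pogz (-0.013), Wac (-0.000355) and Dyrk1a (-0.00423). With a filter of at least 1 CPM in 3 libraries they were Pogz (-0.00765). With limma-voom they were Wac (-0.020). With 1 library left out the ranges that crossed 0 were Adnp (-0.15 to 0.055), Kmt2c (-0.099 to 0.00693), Mbd5 (-0.11 to 0.062), Pogz (-0.024 to 0.042), Myt1l (-0.00331 to 0.079), Tcf4 (-0.11 to 0.20), Deaf1 (-0.00678 to 0.081), Auts2 (-0.10 to 0.055), Tnrc6b (-0.011 to 0.11), Trip12 (-0.039 to 0.032), Wac (-0.12 to 0.23), Dyrk1a (-0.015 to 0.033), Naa15 (-0.026 to 0.000858) and Dscam (-0.0048 to 0.051). The member with the lowest counts, Ptchd1, had at least 260 in every library.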
